A study of Mus musculus with 6 samples.

Results

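The genes described here are the matrix metalloproteases (Mmp), the ADAM and ADAMTS proteases and the tissue inhibitors of metalloproteases (Timp), measured in mouse sciatic nerve. They were chosen by gene name, as all probes that are not controls and whose name is Mmp, Adam, Adamts or Timp followed by a number. Earlier results of these data were known when the group was chosen. The name rule gave 117 probes for 79 genes, out of 39429 probes for 30325 genes or names on the array: 23 Mmp, 33 Adam, 19 Adamts and 4 Timp genes. RNA came from 3 independent pools of nerves from littermate controls (Ctrl) and 3 pools from OGT_SCKO mice, all aged 1 month, on a background the labels write as C56 BL6. OGT is the enzyme that adds O-GlcNAc sugars to proteins, and the series title places its role studied here in Schwann cells, the cells that myelinate the nerve. The Cre driver, the alleles and the number of animals in a pool are not given in the sources used here, so p-values measure the spread between pools.

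Matrix metalloproteases cut collagens, laminins and other matrix proteins. ADAMs are membrane proteases that release the outer part of growth factors, receptors and adhesion molecules, and some members have no protease activity and bind ligands instead. ADAMTS proteases are secreted and cut proteoglycans, procollagens and von Willebrand factor. TIMPs block these enzymes. In peripheral nerve, ADAM10 and ADAM17 are known as sheddases of axonal neuregulin-1, and ADAM22 on axons is known as the receptor for LGI4, a protein that Schwann cells secrete and that is needed for myelination.

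Each array carried 1 pool. Over the 6 arrays the 75th percentile of signal lay between 2749 and 6136, and the share of probes well above background between 58.9% and 65.2%; the number of arrays limits the precision. A level is log2 of the signal minus that percentile of the same array, so it can be compared between arrays but not between probes. A gene counts as called when its adjusted p in limma, corrected over 19058 genes by the Benjamini-Hochberg method, is below 0.05. Ogt itself was at 41.3% of the control mean in OGT_SCKO, without overlap between the groups, and its second probe at 50.5%. Nerve holds many cell types, and in bulk RNA fewer cells of a type and less RNA per cell cannot be told apart. Ctrl 2 and all 3 OGT_SCKO pools shared a slide, and Ctrl 1 and Ctrl 3 were on another, so called members are also given with the slide as a block. That estimate equals the one from slide 1 alone, since it compares the 3 OGT_SCKO pools with Ctrl 2, a single control pool.

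Many members were dim in this nerve. Well above background on all 6 arrays were 53 of the 117 probes, and 40 were so on none. Only 46 of the 79 genes had a probe that was well above background on every array of at least 1 group and could be tested. None of the 4 secreted collagenases (Mmp1a, Mmp1b, Mmp8 and Mmp13) was among them. Of the 21 ADAMs known mainly from the male reproductive tract, 9 were tested.

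**Figure D1:**
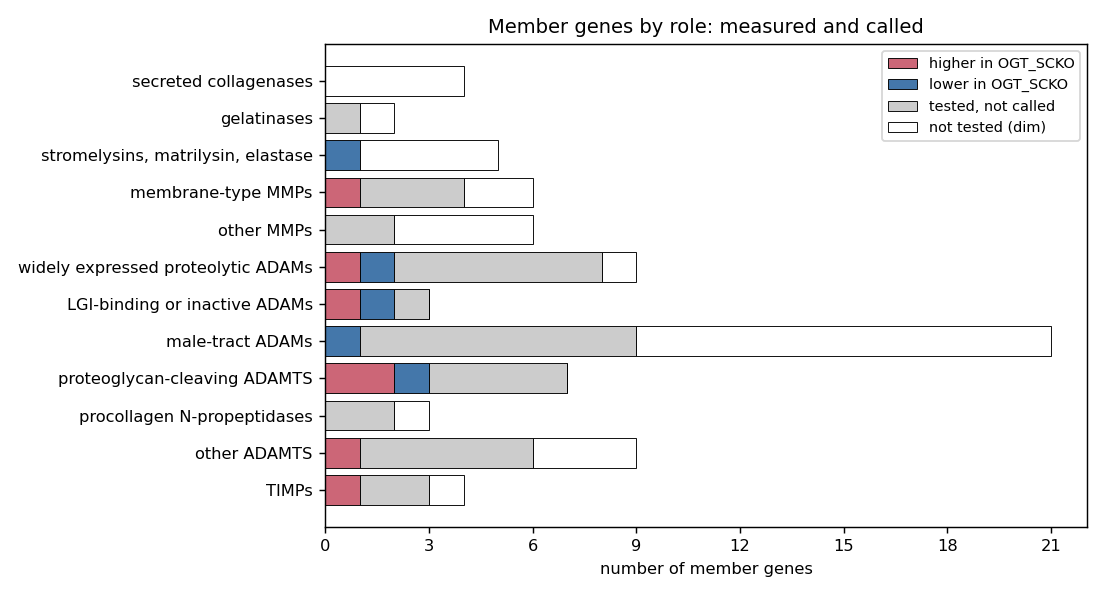
Number of member genes in each role group (horizontal axis), split into genes called higher (red) or lower (blue) in OGT_SCKO, genes tested and not called (grey) and genes too dim to test (white). The secreted collagenases had no gene tested, and the male-tract ADAMs held the most untested genes, 12 of 21.

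The stretches before the start sites of the dim MMP genes are shown because 10 MMP genes lie side by side on mouse chromosome 9, and 7 of them share a short motif. The motif searched was TGAGTCA, the core that AP-1 factors such as JUN are known to bind, on both strands (TGACTCA on the other). Promoters came from RefSeq, build GRCm38.p6, and covered 49 of the 79 genes. In the 250 bases before a start site, the motif was present in 9 of these 49 (18.4%), against 1395 of all 27025 genes in the table (5.16%). A gene counted as holding the motif when the window of any of its listed start sites did. Mmp12, Mmp7 and Adam19 have further start sites listed, whose windows held no motif. For Mmp12 and Mmp7 the window printed is that with the motif. In the chromosome 9 genes it lay between 35 and 93 bases before the start site so chosen. The 100 bases before the start are printed 5′ to 3′ on the gene's strand, with the motif in capitals.
Mmp13, chr9:7272414-7272513, plus strand: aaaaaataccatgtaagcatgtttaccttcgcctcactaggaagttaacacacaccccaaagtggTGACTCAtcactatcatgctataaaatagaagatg
Mmp12, chr9:7347274-7347373, plus strand: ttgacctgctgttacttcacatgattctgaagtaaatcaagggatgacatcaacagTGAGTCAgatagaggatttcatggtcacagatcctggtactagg
Mmp1b, chr9:7388027-7388126, minus strand: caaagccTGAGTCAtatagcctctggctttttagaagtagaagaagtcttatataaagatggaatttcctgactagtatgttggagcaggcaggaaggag
Mmp3, chr9:7445722-7445821, plus strand: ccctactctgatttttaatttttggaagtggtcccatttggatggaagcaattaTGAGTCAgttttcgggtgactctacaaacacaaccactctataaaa
Mmp1a, chr9:7464041-7464140, plus strand: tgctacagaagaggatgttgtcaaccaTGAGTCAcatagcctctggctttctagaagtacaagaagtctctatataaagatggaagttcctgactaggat
Mmp10, chr9:7502242-7502341, plus strand: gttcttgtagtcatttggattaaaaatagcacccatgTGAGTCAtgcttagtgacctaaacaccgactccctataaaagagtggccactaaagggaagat
Mmp7, chr9:7691990-7692089, plus strand: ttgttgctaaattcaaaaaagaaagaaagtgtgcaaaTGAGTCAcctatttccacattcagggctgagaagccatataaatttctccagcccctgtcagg
Timp1, chrX:20870066-20870165, plus strand: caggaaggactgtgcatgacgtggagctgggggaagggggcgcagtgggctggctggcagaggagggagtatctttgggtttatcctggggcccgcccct

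Jun mRNA, the gene of the factor named in the series title, was 2.64-fold higher in OGT_SCKO (log2 1.40, SE 0.12, limma adjusted p 0.000704), and 2.65-fold with the slide as a block (0.0167). Of the 9 members with the motif, 7 were well above background on no array and 1, Adam19, was tested. Adam19, a shedding protease, read 0.20 on the log2 scale (SE 0.23, limma adjusted p 0.549), and its groups overlapped. Mmp3, stromelysin-1, was well above background in 2 of 3 Ctrl arrays and in none of the OGT_SCKO arrays. Its levels were -5.47, -4.12 and -4.31 in Ctrl 1 to 3 and -6.93, -7.82 and -7.46 in OGT_SCKO 1 to 3. The Mmp3 groups did not overlap, with OGT_SCKO the lower, but the gene was too dim for the test. Among 33 untested members it alone had a limma adjusted p below 0.05 (0.0119) when dim probes were let in. That p rests on OGT_SCKO values at background, so no direction is drawn from it. Mmp13, well above background on no array, also read -0.35 in that fit. None of the 9 called members with a promoter in the table, Timp1 included, held the motif in this window. A match is a description of letters, and its absence from this window says nothing about the factor.

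Of the 46 genes tested, 7 were higher in OGT_SCKO, 5 were lower and 34 were not called. Over all genes tested, 11.2% were called higher and 12.1% lower, 23.3% in all. The members' median log2 fold change was -0.07, as was that of all genes, and the median size of the change without its sign was 0.41 against 0.32. In 26 of 46 members the groups did not overlap, against 45.7% of all genes. By family, 1 was called higher and 1 lower of 8 Mmp genes, and 2 and 3 of 20 Adam genes. The calls were 3 and 1 of 15 Adamts genes, and 1 and 0 of 3 Timp genes. Each gene was read at its brightest probe, and for Adamts8, called lower, a dimmer probe ran the other way.

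**Figure D2:**
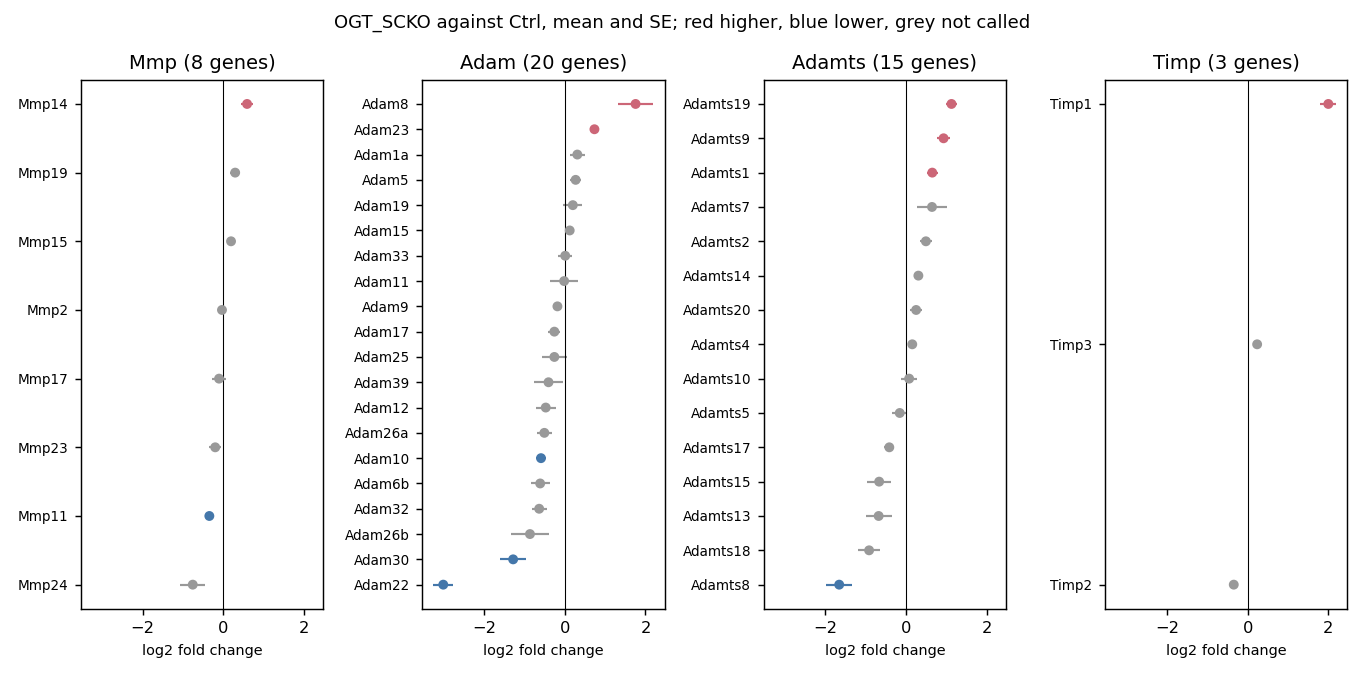
Log2 fold change of OGT_SCKO against Ctrl (horizontal axis) for each of the 46 members tested, one panel per family. Points are limma estimates and bars 1 SE; red genes were called higher, blue lower, grey not called. Adam22 at -3.01 and Timp1 at 2.00 lie farthest from 0.

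**Figure D3:**
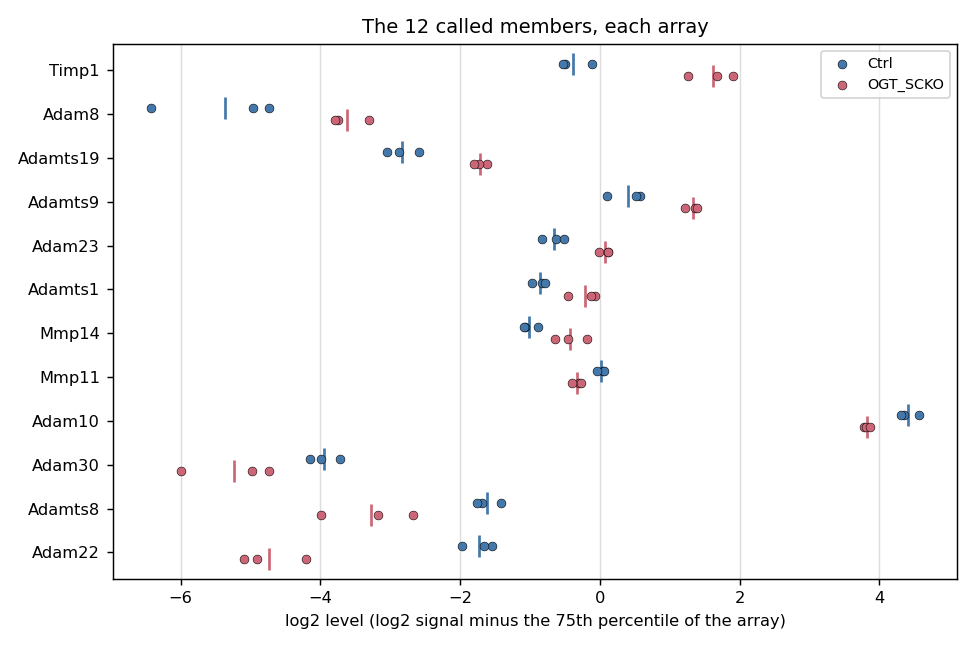
Level of each of the 12 called members on each array (points; log2 signal minus the array's 75th percentile), with group means as vertical ticks, Ctrl in blue and OGT_SCKO in red, 3 pools each. In none of the 12 do the groups overlap; Adam8 spreads most in Ctrl and Adamts8 and Adam30 most in OGT_SCKO.

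Timp1, the inhibitor long known as a gene induced in injured nerve, rose. The probe at chrX:20451802-20451861 (mm9, per the file headers) read -0.50, -0.12 and -0.53 in Ctrl 1 to 3 and 1.91, 1.26 and 1.68 in OGT_SCKO 1 to 3. All 3 OGT_SCKO pools lay above all Ctrl pools. The difference was 4.0-fold (log2 2.00, SE 0.20, limma adjusted p 0.00132), and with the slide as a block 3.32-fold (limma adjusted p 0.0236).

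No other TIMP was called. Timp2, which also takes part in activating pro-MMP2, read 5.46, 5.69 and 5.53 in Ctrl and 5.35, 5.12 and 5.19 in OGT_SCKO. Its groups did not overlap and OGT_SCKO was the lower, by a log2 difference of -0.34 (SE 0.12, limma adjusted p 0.0784), and a second probe read -0.33. Timp3, the TIMP that binds to the matrix, read 4.09, 4.14 and 4.12 in Ctrl and 4.30, 4.34 and 4.42 in OGT_SCKO. Again the groups did not overlap, here with OGT_SCKO the higher, at a log2 difference of 0.24 (SE 0.10, limma adjusted p 0.120). Timp4 was well above background in 1 Ctrl and 2 OGT_SCKO arrays and was not tested.

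Among the MMPs, Mmp14 rose. It encodes MT1-MMP, the membrane protease that activates pro-MMP2. Its levels were -0.89, -1.07 and -1.09 in Ctrl and -0.64, -0.19 and -0.45 in OGT_SCKO, 1.5-fold higher without overlap (log2 0.59, SE 0.14, limma adjusted p 0.0308). The slide-blocked log2 value was 0.64 with a limma adjusted p of 0.148, and the call was lost without Ctrl 1, Ctrl 2, Ctrl 3 or OGT_SCKO 3 (0.0636, 0.0957, 0.111 and 0.0981). Mmp2, the gelatinase that MT1-MMP activates, was bright and level in both groups. It read 3.47, 3.39 and 3.59 in Ctrl and 3.53, 3.38 and 3.44 in OGT_SCKO, overlapping, with a log2 difference of -0.03 (SE 0.11, limma adjusted p 0.837). Mmp9, the other gelatinase, was well above background on 1 array of each group and was not tested.

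Mmp11, stromelysin-3, was at the edge of the threshold. It read 0.05, 0.07 and -0.05 in Ctrl and -0.30, -0.27 and -0.40 in OGT_SCKO, a log2 difference of -0.35 (SE 0.10, limma adjusted p 0.0495), and its second probe read -0.34. The call was lost without any 1 of the 6 pools (limma adjusted p 0.0564 to 0.176) and with the slide as a block (log2 -0.39, 0.192). The remaining MMPs tested were not called. Mmp15 and Mmp17, both membrane-type, had log2 fold changes of 0.19 and -0.11, Mmp19 0.29 and Mmp23 -0.20. Mmp24, the membrane-type MMP known from neurons, read -0.76 (SE 0.31, limma adjusted p 0.120) and overlapped between groups.

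The largest change of any member was in Adam22, the gene of a receptor for LGI proteins, which fell. It read -1.55, -1.97 and -1.66 in Ctrl 1 to 3 and -5.09, -4.21 and -4.91 in OGT_SCKO 1 to 3, where 2 of 3 arrays were well above background. Every OGT_SCKO pool lay far below every Ctrl pool. The log2 difference was -3.01 (SE 0.25, 8.06-fold lower, limma adjusted p 0.000608). With the slide as a block it was -2.77 (limma adjusted p 0.0135). With normexp background correction, which shrinks dim values, the fold was 3.82 (log2 -1.93, limma adjusted p 0.00966).

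This result rests on 1 of 3 Adam22 probes. The probe used lies at chr5:8072390-8072449 and the others at chr5:8092341-8092400 and chr5:8144692-8144751 (mm9). The others were well above background on 0 and 1 of the 6 arrays. The exons or isoforms that the 3 probes read, and the cells of the nerve that made this mRNA, were not analysed here. The mRNA level in nerve is no measure of the receptor on axons.

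Of the 4 LGI ligands, 2 were called lower and none higher, beside 12.1% lower and 11.2% higher of all genes tested. Lgi4, the ligand secreted by Schwann cells, read 3.84, 4.13 and 3.97 in Ctrl and 3.31, 2.92 and 3.31 in OGT_SCKO, 1.74-fold lower without overlap (log2 -0.80, SE 0.15, limma adjusted p 0.0125). Its slide-blocked log2 value was -0.95 (limma adjusted p 0.0619), and without Ctrl 3 the adjusted p was 0.0524. Lgi3 also fell, with a log2 difference of -0.72 (SE 0.11, limma adjusted p 0.00577), and lost the call with the slide as a block and with normexp. Lgi1 and Lgi2 were not called, at -0.09 and -0.19.

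The other receptors of this group differed. Adam23, an LGI receptor without protease activity, read -0.83, -0.63 and -0.52 in Ctrl and -0.01, 0.11 and 0.12 in OGT_SCKO. It was 1.66-fold higher without overlap (log2 0.74, SE 0.12, limma adjusted p 0.00776), and with the slide as a block 0.70 (0.0898). Its probes disagreed: a second kept probe read -0.09 and another 1.08, the latter well above background on 1 Ctrl array and 3 OGT_SCKO arrays. Adam11, known from neurons, overlapped between groups at -0.02 (SE 0.35), and its sign turned under several settings, so it has no direction here.

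**Figure D4:**
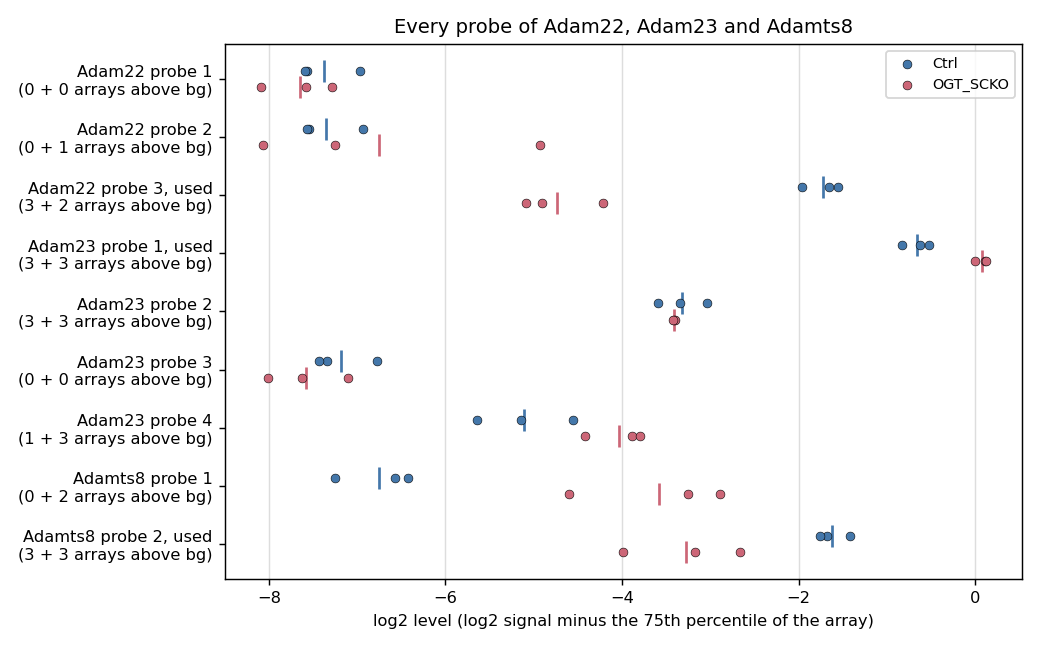
Level on each array (points; log2 signal minus the array's 75th percentile) for every probe of Adam22, Adam23 and Adamts8, Ctrl blue and OGT_SCKO red, with the number of Ctrl and OGT_SCKO arrays above background in brackets. The probes of Adamts8 run in opposite directions, those of Adam23 disagree, and 1 Adam22 probe carries the signal.

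Adam10, the main sheddase of Notch and N-cadherin, fell. It read 4.57, 4.36 and 4.31 in Ctrl and 3.79, 3.81 and 3.87 in OGT_SCKO. The OGT_SCKO pools lay close together and all below Ctrl, 1.5-fold lower (log2 -0.59, SE 0.11, limma adjusted p 0.0128). The call was lost with quantile normalisation (log2 -0.43, 0.0664), with the slide as a block (-0.53, 0.132) and without OGT_SCKO 3 (0.0532). Adam17, the sheddase of TNF and of several EGF receptor ligands, read 1.14, 1.62 and 1.27 in Ctrl and 1.19, 1.04 and 1.03 in OGT_SCKO. The groups overlapped at this probe (log2 -0.26, SE 0.15, limma adjusted p 0.244). At a second probe, with a log2 fold change of -0.32, they did not overlap, and neither probe was called.

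Adam8, a protease known from myeloid cells, rose 3.37-fold from a low level. It read -4.96, -4.73 and -6.42 in Ctrl, where 1 of 3 arrays was well above background, and -3.75, -3.31 and -3.79 in OGT_SCKO, where all were (log2 1.75, SE 0.44, limma adjusted p 0.0319). The groups did not overlap, but the call was lost with normexp (log2 1.03, limma adjusted p 0.0577), with the slide as a block (log2 1.11, 0.241) and without Ctrl 1, OGT_SCKO 2 or OGT_SCKO 3 (0.0590, 0.0618 and 0.0868). Of 12 macrophage markers none was called, with a median log2 fold change of -0.05 and summed levels of 97.9 to 117 (in multiples of each array's 75th percentile) in Ctrl and 83.4 to 116 in OGT_SCKO. Of 7 neutrophil markers tested only Retnlg was called, and their median was 0.03. Retnlg was above background on no Ctrl array and at least 6.96-fold higher in OGT_SCKO. Over all genes tested, 23.3% were called. The remaining widely expressed ADAMs were not called: Adam9 read -0.18 (limma adjusted p 0.243), Adam12 -0.47 (0.196) and Adam15 0.12 (0.396).

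The ADAMs known mainly from the male reproductive tract were mostly dim, with 12 of 21 not tested, although in 8 of the 9 tested every array was well above background. Of these 9, 7 had lower estimates in OGT_SCKO and 1, Adam30, was called. Adam1a and Adam5 had higher estimates, at 0.31 and 0.27, and neither was called. A second Adam5 probe, well above background on every array, read 0.92 (limma adjusted p over all kept probes 0.0357). Adam30 read -3.99, -3.72 and -4.15 in Ctrl and -4.74, -5.99 and -4.97 in OGT_SCKO, 2 of those 3 well above background (log2 -1.28, SE 0.33, limma adjusted p 0.0344). With normexp it was -0.52 (limma adjusted p 0.467), with the slide as a block -1.51 (0.121), and without Ctrl 1, Ctrl 2, Ctrl 3 or OGT_SCKO 3 the adjusted p was 0.0929, 0.103, 0.0808 and 0.0761. Adam32 just missed the threshold, at -0.63 (0.0505), and Adam26a and Adam6b, at -0.51 and -0.61, did not pass either. One array stood out among dim members. Of 17 members with a mean level below -2, OGT_SCKO 2 was the lowest array in 10, against 7 of the other 29, and it was also the brightest array. Without OGT_SCKO 2, Adam30 read -0.90 (limma adjusted p 0.0131), and 6 members were higher and 5 lower, with 10 of the 12 calls kept. The members' median then was 0.064 in place of -0.07, and that of all genes -0.03, with 21.3% of all genes called.

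Among the ADAMTS proteases, 3 were called higher and 1, Adamts8, lower at the probe used, though its probes disagreed. Adamts9, which cuts versican and aggrecan, read 0.11, 0.58 and 0.52 in Ctrl and 1.37, 1.22 and 1.40 in OGT_SCKO. Every OGT_SCKO pool lay above every Ctrl pool, by 1.90-fold (log2 0.93, SE 0.15, limma adjusted p 0.00793). Its second probe read 0.83, and with the slide as a block it was 0.75 (0.100). Adamts1, a versican-cleaving relative, read -0.97, -0.83 and -0.79 in Ctrl and -0.46, -0.06 and -0.12 in OGT_SCKO. All OGT_SCKO pools were higher, by 1.57-fold (log2 0.65, SE 0.14, limma adjusted p 0.0196). The slide-blocked value was 0.61 (limma adjusted p 0.150), and without Ctrl 1, Ctrl 2, Ctrl 3 or OGT_SCKO 3 the adjusted p was 0.0746, 0.0579, 0.0615 and 0.0841.

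Adamts19, whose substrates are little known, rose with little spread. It read -2.59, -2.88 and -3.05 in Ctrl and -1.61, -1.72 and -1.81 in OGT_SCKO. The groups lay well apart, 2.18-fold (log2 1.12, SE 0.15, limma adjusted p 0.00330). With the slide as a block it was 1.16 (limma adjusted p 0.0417).

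Adamts8 was called lower, but its probes contradicted each other. The probe used, at chr9:30751050-30751109 (mm9), read -1.68, -1.41 and -1.76 in Ctrl and -2.67, -3.99 and -3.17 in OGT_SCKO (log2 -1.66, SE 0.32, 3.16-fold lower, limma adjusted p 0.0138). The probe at chr9:30770384-30770443 was above background in no Ctrl and 2 OGT_SCKO arrays, and read -6.43, -6.57 and -7.25 in Ctrl and -4.60, -2.89 and -3.25 in OGT_SCKO. The first probe was lower and the second higher in OGT_SCKO, each without overlap, so no direction is given for the gene. The call at the first was lost with normexp (log2 -1.22, limma adjusted p 0.0723), with the slide as a block (-1.86, 0.0787) and without OGT_SCKO 3 (0.0512).

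The other ADAMTS genes were not called. The procollagen N-propeptidases Adamts2 and Adamts14, which trim fibrillar procollagens, were higher in every OGT_SCKO pool, at log2 0.49 (SE 0.14, limma adjusted p 0.0510) and 0.30 (SE 0.12, 0.106). Adamts17 and Adamts18 were lower in every OGT_SCKO pool, at -0.42 (SE 0.13, 0.0555) and -0.92 (SE 0.27, 0.0536). Adamts4 and Adamts20, both proteoglycan-cleaving, read 0.15 and 0.25, and Adamts15 -0.67 (SE 0.30, limma adjusted p 0.152). Adamts13, the protease of von Willebrand factor, read -0.68 (SE 0.33, limma adjusted p 0.170).

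The genes that act with these proteases were taken from lists of 70 genes, of which 61 were tested, 13 were higher and 9 lower. Over all genes tested, 11.2% were called higher and 12.1% lower, the shares to set beside each list below. With the slide as a block, all 22 called genes kept their sign but only Nrg1, Btc, Hbegf and Serpine2 remained called. In that setting 6.43% of all genes were called. Of 8 ADAM10 and ADAM17 partners tested, 3 were higher and none lower. Rhbdf2, which carries ADAM17 to the cell surface, was 1.74-fold higher (log2 0.80, SE 0.17, limma adjusted p 0.0180). Tspan5 and Tspan33, tetraspanins that escort ADAM10, were higher at 0.58 (0.0141) and 0.61 (0.00734), while Adam10 itself fell. Rhbdf2 was lost without Ctrl 1, Ctrl 2 or OGT_SCKO 3 (limma adjusted p 0.0658, 0.0627 and 0.0738) and Tspan5 without any 1 Ctrl pool (0.0544, 0.0563 and 0.0517). Of the 4 proprotein convertases, which activate many of these enzymes, none was called, and Reck, a membrane inhibitor of MMPs, read -0.01.

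Of 10 shed substrates tested, 5 were higher and 2 lower. Nrg1, the growth factor neuregulin-1, read -4.92, -4.89 and -5.63 in Ctrl, where 1 of 3 arrays was well above background, and -1.08, -0.86 and -0.64 in OGT_SCKO. The groups were far apart, at a log2 difference of 4.29 (SE 0.23, limma adjusted p 0.000190), and 4.04 with the slide as a block (0.00501). Nrg1 passed the filter only through the OGT_SCKO arrays. Its Ctrl values lay near or below background, so the size of the difference is uncertain. Which cells of the nerve made the Nrg1 mRNA was not measured. Btc, the EGF receptor ligand betacellulin, was above background on no Ctrl array and on all OGT_SCKO arrays, at least 2.43-fold higher against the lowest signals above background (limma adjusted p 0.000214). Hbegf, another ligand of that receptor, was 3.15-fold higher (log2 1.66, SE 0.16, limma adjusted p 0.000981), and 3.43-fold with the slide as a block (0.0147). The other 4 called substrates, named after their values were seen, were Ngfr at 0.77 and Jag1 at 0.50, both higher, and Tgfa at -0.73 and Cdh2, N-cadherin, at -1.04, both lower.

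**Figure D5:**
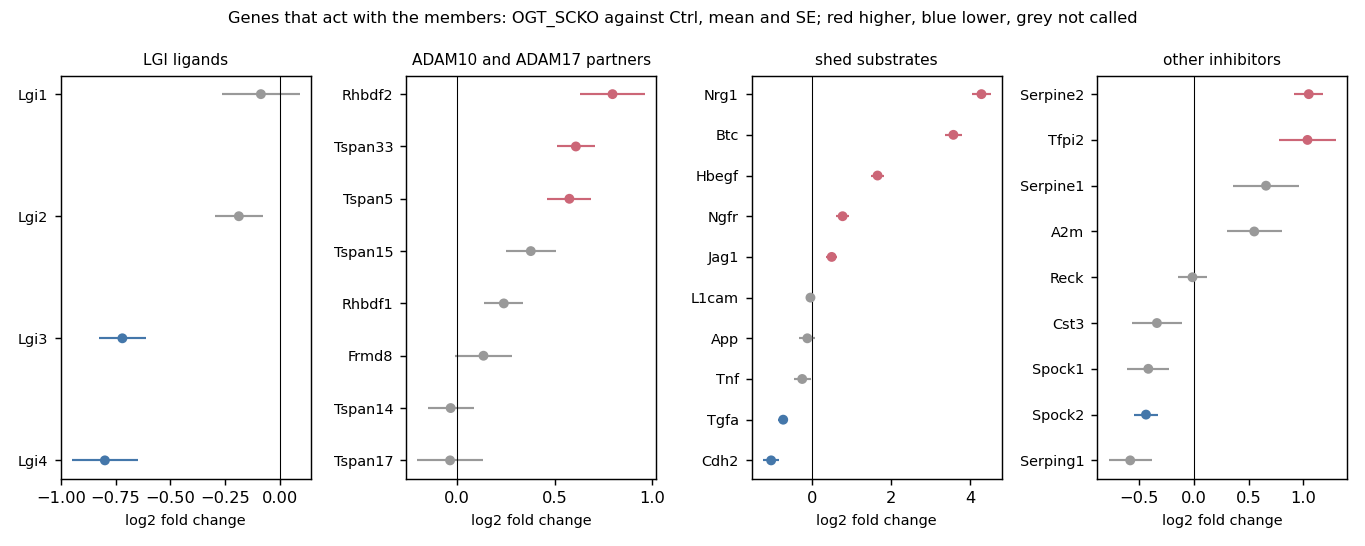
Log2 fold change of OGT_SCKO against Ctrl (horizontal axis, a scale of its own in each panel) for the tested LGI ligands, ADAM10 and ADAM17 partners, shed substrates and other inhibitors. Points are limma estimates and bars 1 SE; red genes were called higher, blue lower, grey not called. Btc was above background on no Ctrl array, so its point at a fitted 3.58 is no measured size, and Nrg1 was above background on 1 of 3; Lgi4 and Lgi3 are the called ligands.

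Among 9 genes listed as inhibitors outside the TIMP family, 2 were higher and 1 lower. Serpine2, protease nexin-1, was 2.07-fold higher (log2 1.05, SE 0.13, limma adjusted p 0.00320), and 2.11-fold with the slide as a block (0.0422). Tfpi2 was 2.05-fold higher (log2 1.04, SE 0.26, 0.0329). Spock2, a testican whose own action as an inhibitor is not established here, was lower at -0.44 (SE 0.11, 0.0333). Tfpi2 lost its call without any 1 Ctrl pool or OGT_SCKO 3 (limma adjusted p up to 0.0986), and Spock2 without any 1 pool (up to 0.111). Of 6 plasminogen activation genes 1 was called, the urokinase receptor Plaur, at 0.38 (SE 0.09, limma adjusted p 0.0309), a call lost without any 1 Ctrl pool, OGT_SCKO 1 or OGT_SCKO 3 (up to 0.115).

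Of 9 ADAMTS substrates, 1 was higher and 2 lower. Vcan, versican, read 0.66 (SE 0.11, limma adjusted p 0.00851), but the mean of its kept probes was 0.09 (0.674). Vwf, von Willebrand factor, read -0.60 (SE 0.12, 0.0146), with a mean over probes of -0.28 (0.190), and was lost without any 1 Ctrl pool (0.0508 to 0.0569). Comp, a cartilage matrix protein, read -1.08 (SE 0.29, limma adjusted p 0.0393) and was lost without Ctrl 2, Ctrl 3, OGT_SCKO 2 or OGT_SCKO 3 (up to 0.127), with the slide as a block (-1.36, 0.111) and with normexp, where it was -0.48 (0.462). Among ADAMTS-like proteins, which share the ADAMTS matrix-binding parts without the protease, Adamtsl1 fell at -0.88 (limma adjusted p 0.00912), a call lost with the slide as a block (-0.82, 0.0997). Adamtsl5 rose at 1.04 (0.00712) at 1 probe, while the mean of its kept probes was 0.17 (0.372), and with the slide as a block the first was 1.04 (0.0742). The astacin protease Tll1, a relative of the procollagen C-proteinase, fell at -0.72 (limma adjusted p 0.0108), a call lost without Ctrl 3 (0.0513).

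Markers of other cell types were also read, beside shares over all genes tested of 11.2% called higher and 12.1% lower. Of 5 adipocyte markers tested 4 were lower, with a median log2 fold change of -2.61 and summed levels of 1.07 to 4.42 in Ctrl and 0.206 to 0.651 in OGT_SCKO. Of 6 skeletal muscle markers 4 were lower, with summed levels of 2.35 to 2.59 against 0.728 to 1.33. For both lists the summed level of every OGT_SCKO pool lay below every Ctrl pool. Of 6 mast cell markers 2 were called higher and all 6 had higher estimates. Their summed levels were 2.56 to 5.84 against 6.71 to 11.8, without overlap. Of 8 fibroblast markers 2 were lower, with summed levels of 199 to 311 against 140 to 248, and of 8 endothelial markers 2 were lower, at 35.6 to 39.7 against 23.6 to 29.5. The fibroblast sums overlapped between the groups and the endothelial sums did not. Of 10 myelinating Schwann cell markers, well above background on every array, 2 were lower, at 555 to 728 against 365 to 571. Perineurial markers had 1 lower of 5, with summed levels of 47.8 to 62.7 against 36.1 to 42.1, which did not overlap. Mural markers had 1 higher of 6, at 20.7 to 25.9 against 15.9 to 21.2, which overlapped. The part of these shifts in the changes of the proteases, their inhibitors and substrates was not tested.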

How the data were processed

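RNA from 6 pools was labelled with a red dye and hybridised to 1-colour Agilent arrays, per the labels' protocols. Spot intensity values were made by the authors with Agilent Feature Extraction 11.5.1.1, per the submitters' processing notes, which subtracts background, per the file headers; they were not normalised between arrays. The authors' deposited log2 table has the same median in every column and served as an alternative; its exact steps are not given in the sources used here.

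Here, control and outlier spots were left out, log2 intensity was centred on each array's 75th percentile, and spots of a probe were averaged. A gene, named through RefSeq accessions where they matched (104 of 117 member probes), was read at its brightest probe above background on all arrays of a group, and tested with limma 3.58.1 (R 4.3.3). No spot was saturated. The script was tested on simulated data.

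The members and all lists were chosen with earlier results of these data known. Named are all called members, up to 3 more per role with the smallest p, and Ogt. Also named are the TIMPs, Mmp2, Mmp9, Mmp14, Adam10, Adam17, Adam22 and up to 3 called genes of each list. Jun, Mmp3, Adam1a, Adam5 and some substrates were added after their values were seen. With 3 against 3 an exact permutation test cannot go below 0.1.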

Additional observations from a re-analysis of the deposited data

How the results depend on the processing

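Against 7 members called higher and 5 lower, normexp gave 6 and 2, no filter on dim probes 4 and 4 (median log2 fold change -0.33), the slide as a fixed block 2 and 1 (-0.18), the slide as a random block 8 and 8, the arrays of slide 1 alone, with 1 control pool, 0 and 1 (-0.18), and testing each kept probe 11 and 5 probes. On slide 1 alone limma called 2.13% of all genes. The replicate block gave 4 and 1 (7.74%). Deviations of same-numbered pools correlated at -0.27, -0.53 and 0.06. Other pairs between the groups ran from -0.41 to 0.46, so these values cannot settle whether the numbers pair the pools. Leaving out 1 pool gave 4 to 7 higher and 1 to 10 lower, with medians of -0.18 to 0.064. The counts were 4 and 1 without OGT_SCKO 3 (10.4%), 4 and 3 without Ctrl 1 (12.8%), and 7 and 10 without OGT_SCKO 1 (29.5%). Quantile normalisation, median scaling, the deposited log2 values, the filter on all 6 arrays, the mean of probes and the eBayes trend kept both counts within 1.5 times. The filter on all 6 arrays tested 41 members and kept 9 of the 12 calls, since Adam22, Adam8 and Adam30 were no longer tested. The median of all genes was -0.07 and -0.01 after quantile normalisation. Over 18 settings the sign turned in 7 of the 46 members, none of them called: Adam11, Adam25, Adam33, Adamts5, Adamts10, Mmp2 and Mmp17. Mmp2 read 0.069 with quantile normalisation, 0.0038 with median scaling, 0.065 with the deposited values and 0.062 with the slide as a block or slide 1 alone, and -0.083 to 0.018 without 1 pool. Adam11 read 0.022 with median scaling, 0.0027 as a mean of probes, 0.080 with the random block and -0.26 to 0.31 without 1 pool, and Mmp17 -0.22 to 0.052. The causes were not tested. Dim members, below or near background, are the least certain.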
